A study of Rattus norvegicus with 12 samples.

Results

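The genes described here are the chemokines and chemokine receptors of the rat colon apart from Ccl2, Ccl7, Ccl12, Ccr2, Cxcl1, Cxcl2, Cxcr1 and Cxcr2. They were chosen by name: every probe of the array that was no control and whose gene name began with Ccl, Cxcl, Cx3cl, Xcl, Ccr, Cxcr, Cx3cr or Xcr and a number was taken, and the 8 named genes were left out. This gave 51 probes of 46 genes, 29 ligands and 17 receptors, out of 30367 probes. RNA of colonic tissue came from 12 male Wistar rats. The 4 rats of Group C (C1 to C4) stayed with their mothers and received placebo. The 4 rats of Group M (M5 to M8) were kept from their mothers for 180 min a day between postnatal days 2 and 14 (neonatal maternal separation, NMS) and received placebo. The 4 rats of Group D (D9 to D12) underwent the same separation and received VSL#3, a mixture of probiotic bacteria, by gavage between days 3 and 60. The 12 rats underwent colorectal distension (CRD), which stretches the bowel wall, at an age of 60 days. Placebo, like VSL#3, was given between days 3 and 60, and the last day of treatment was day 60. The dose of VSL#3 is not the same in the labels and in the methods of the study. The samples hold a mixture of all cells of the colon piece, and the labels give no layer or cell type.

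Chemokines are small secreted proteins that draw leukocytes along a gradient, and they are named by the spacing of their first cysteines (CC, CXC, CX3C and XC). Their receptors pass through the membrane 7 times, signal through G proteins of the inhibitory class, and mostly bind several ligands, as most ligands bind several receptors. In the gut, some chemokines are made without a stimulus and keep lymphocytes, macrophages and eosinophils in the mucosa or build lymphoid follicles, while others are induced in inflammation and bring in monocytes, T cells and neutrophils.

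The arrays carried probes of 60 bases, and the sequences of those on which the following results rest are shown in 5′ to 3′ direction, with their position in the rn4 build as the files give it. The Ccr1, Ccl4, Ccl17, Ccr3 and Ccr7 probes are shown whole. Of the Ccl5 probe (chr10:71605854-71605913), the gene that passed the strictest test, the first 30 bases are shown.
Ccr1 (chr8:128694469-128694528): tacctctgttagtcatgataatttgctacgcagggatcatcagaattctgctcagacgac
Ccr3 (chr8:128769167-128769226): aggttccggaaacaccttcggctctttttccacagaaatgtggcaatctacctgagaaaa
Ccr7 (chr10:87925806-87925865): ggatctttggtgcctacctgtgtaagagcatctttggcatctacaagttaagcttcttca
Ccl4 (chr10:71760265-71760324): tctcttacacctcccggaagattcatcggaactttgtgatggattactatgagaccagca
Ccl17 (chr19:10641376-10641435): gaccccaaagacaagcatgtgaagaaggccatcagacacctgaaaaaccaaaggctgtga
Ccl5: tatcataccatagagattataactgtgtcc
No pair of probes for different genes of the 46 shared more than 35 of 60 bases in an ungapped alignment, and this includes the neighbours Ccl3, Ccl4 and Ccl5 on chromosome 10 and Ccr1 and Ccr3 on chromosome 8. For Ccl20 the array held a pair of probes that shared a run of 53 bases. Ccl6, Cxcl12, Xcl1 and Xcr1 had a pair of probes each with no shared run above 8 bases.

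Values are log2 signals relative to the 75th percentile of the array, so that 0 is the signal below which 75% of the probes lay, and probes are compared between rats and not with each other. Of the 46 genes, 35 were measured, which here means that all arrays of 1 or more groups had the probe well above background, and 34 of them did so on all 11 arrays of the main analysis. Ccl1, Ccr3, Ccr8, Cxcl6, Cxcl17, Cxcr5 and Xcr1 were above background on some arrays, and Ccl25, Ccl26, Cxcl3 and Ccr4 on none. The methods of the study analysed 11 arrays, without D12, and gave no reason for it. Rat D12 is therefore outside the means and tests below, and its value is printed beside those of D9 to D11.

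Some rats stood apart from their groups. Each rat was set against the mean of Group C, which for a rat of Group C left that rat out. Of the 35 measured genes, 9 lay 2-fold or more above this reference in C2 and 0 in C1, C3 and C4. In Group M the numbers were 14 in M5, 12 in M7, 11 in M8 and 0 in M6, and in Group D 1 in D9, 0 in D10, 1 in D11 and 11 in D12. By this count M6 lay with C1, C3 and C4, and C2 and D12 lay near M5, M7 and M8, which did not hold for every gene. The reference for C2 left out its own high values, which the reference for Groups M and D held, so these counts are not on an equal footing. Over all probes the share above the same mark was 1.33% to 3.55% in Group C, 2.42% in M6, 5.5% to 7.35% in the other rats of Group M, 1.39% to 1.52% in D9 to D11 and 6.57% in D12. Groups C and M lay on slide 1, in different rows, and Group D on slide 2, so that slide and Group D cannot be told apart, nor can array row and Group M within slide 1.

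**Figure D1:**
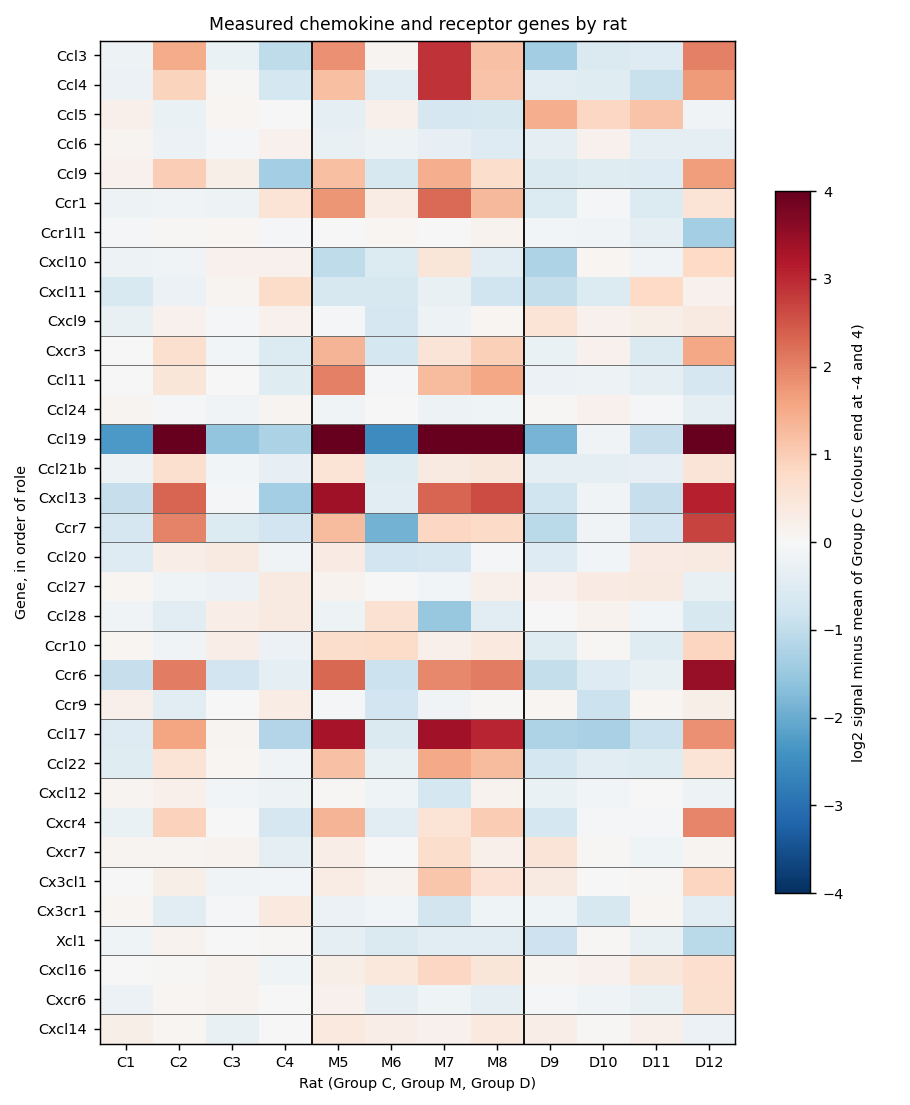
Heat map of 34 of the 35 measured genes (rows, in order of role) in the 12 rats (columns). Colour gives the log2 signal minus the mean of Group C, from blue (lower) to red (higher). C2, M5, M7, M8 and D12 share a set of red rows led by Ccl19, Cxcl13 and Ccr6, which C1, C3, C4, M6 and D9 to D11 lack, and Ccl5 is red in D9, D10 and D11.

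In Group M, the means of 12 of the 51 probes (23.5%) lay at least 2-fold above those of Group C, against 3.53% of all probes, and 0 lay 2-fold below, against 1.83%. None of these differences passed limma (adjusted p up to 0.05 and a 2-fold change), where 0.168% of all probes did, and none did with D12 in the fit (0.0329% of all). Before adjustment, limma gave p up to 0.05 for 14 of the 51 (27.5% against 22.7% of all probes), 12 of them higher (9.86% of all) and 2 lower (12.9% of all). The criterion of the methods asks for p up to 0.05, not adjusted, in both the analysis of variance and Tukey's test, and for a 2-fold change. It was passed by 2 of the 51, or 3.92% against 2.33% of all probes, and Ccr1 was among them. With D12, 4 passed it (1.56% of all), with Ccl11 and Ccr3 added. The median difference of the 46 genes was 0.30 on the log2 scale and that of all probes -0.01.

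In Group D relative to Group M, the direction was turned for most of these genes. The means of 16 probes (31.4%) lay at least 2-fold lower, against 4.52% of all probes, and 1 lay higher, against 2.1%. With D12 the numbers were 13 (2.61% of all) and 1 (0.932% of all). By limma 1 probe passed, that of Ccl5, which was higher in Group D, and 0.125% of all probes did, whereas with D12 none of the 51 passed (0.0132% of all). Before adjustment, 18 had p up to 0.05 (35.3% against 21.6% of all), 2 of them higher (11.8% of all) and 16 lower (9.85% of all). By the criterion of the methods 8 passed (15.7% against 2.65% of all probes): Ccl5 was higher, and 7 were lower, among them Ccl3, Ccr1, Ccl11, Ccl17, Ccl22 and Cxcl17. With D12, 4 passed it (0.948% of all). The groups did not overlap, with D9 to D11 below every rat of Group M, for 11 probes (21.6% against 6.89% of all), and above for 2 (3.92% against 9.07%). With D12, the numbers were 4 (7.84% against 2.31%) and 1 (1.96% against 2.7%). The median difference of the 46 genes was -0.49, and -0.27 with D12, where that of all probes was 0.02 and -0.000924. This comparison shares Group M with the former, so that a high value in Group M enters both.

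In Group D relative to Group C, 0 of the 51 probes passed limma, where 0.00659% of all probes did, and 1, that of Ccl5, passed the criterion of the methods (0.366% of all). With D12, 0 passed either (0.00659% and 0.352% of all). Before adjustment, 3 had p up to 0.05 by limma (5.98% of all), 1 higher and 2 lower, against 3.15% and 2.83% of all probes. The groups did not overlap for 1 probe that was higher (3.82% of all) and 4 that were lower (3.78% of all), and with D12 for 0 (1.93%) and 2 (2.37%). Means differed 2-fold for 1 that was higher (0.514%) and 2 that were lower (0.836%), and with D12 for 0 (0.514%) and 0 (0.738%). The median difference of the genes was -0.24, and -0.03 with D12.

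**Figure D2:**
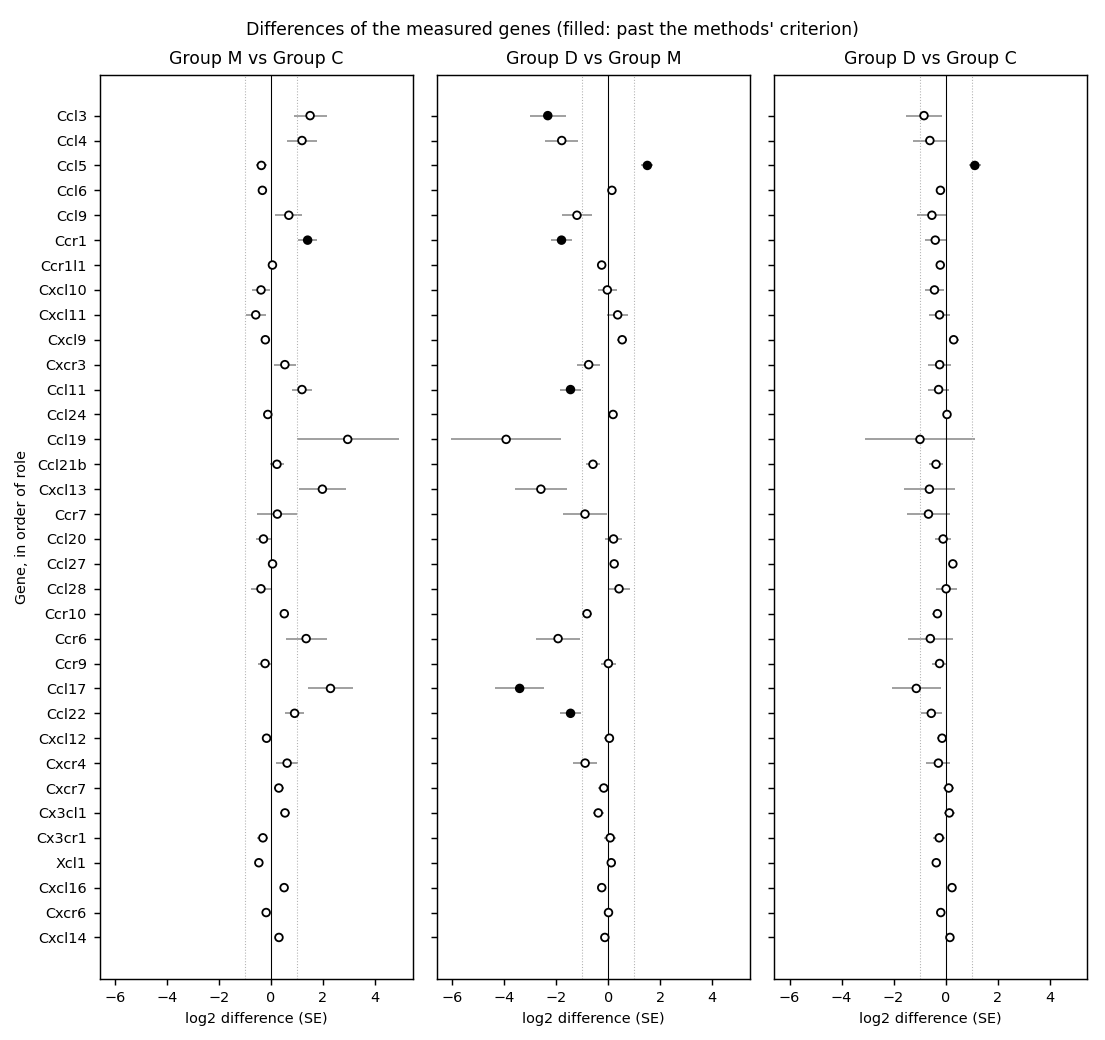
Log2 differences of 34 of the 35 measured genes between the groups, with the standard error of limma as bars, for the 11 arrays. Filled points passed the criterion of the methods, and dotted lines mark a 2-fold change. Ccl5 is the 1 filled point to the right in both comparisons of Group D, Ccr1 is filled on the right in Group M vs Group C, and Ccl3, Ccr1, Ccl11, Ccl17 and Ccl22 are filled on the left in Group D vs Group M.

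Ccl5 (RANTES) attracts T cells, monocytes and eosinophils, and Ccr1 and Ccr3 are among its receptors. Its signal was -0.95, -1.43, -1.09 and -1.14 in C1 to C4, -1.52, -0.96, -1.84 and -1.80 in M5 to M8, and 0.29, -0.34 and -0.03 in D9 to D11. The 3 rats of Group D all lay above the 8 others, whose groups overlapped, while D12 had -1.29 and lay among those others. The mean was -1.15 ± 0.20 (SD, n = 4) in Group C, -1.53 ± 0.40 (n = 4) in Group M and -0.03 ± 0.31 (n = 3) in Group D. Group D exceeded Group M by 1.50 with a standard error of 0.23, or 2.83-fold, with an adjusted p of 0.0476 by limma, and Group C by 1.13 with an adjusted p of 0.366. With D12 in the fit, the first difference was 1.18 and its adjusted p 0.202. The call was also lost when any rat other than C2 or M6 was left out, with adjusted p values between 0.0629 and 0.152.

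The other ligands in the role list of Ccl5 did not follow it. Ccl3 and Ccl4 (the macrophage inflammatory proteins MIP-1α and MIP-1β) attract monocytes and T cells. Ccl3 read -4.46, -2.78, -4.53 and -5.28 in C1 to C4, -2.42, -4.16, -1.36 and -3.10 in M5 to M8, and -5.66, -4.84 and -4.77 in D9 to D11, with -2.24 in D12. Ccl4 read -5.98, -4.86, -5.71 and -6.45 in C1 to C4, -4.56, -6.21, -2.86 and -4.62 in M5 to M8, and -6.21, -6.22 and -6.63 in D9 to D11, with -4.04 in D12. M7 had the highest value of both genes, C2 the highest of its group, and D12 lay within the range of Group M. For Ccl3, Group D minus Group M was -2.33 on the log2 scale (adjusted p = 0.114 by limma, standard error 0.68), which passed the criterion of the methods on 11 arrays but not with D12 (-1.62), and for Ccl4 the difference was -1.79 (0.64, adjusted p = 0.156), which did not. With normexp background correction these differences were -1.47 and -0.71. Group M exceeded Group C by 1.50 and 1.19, with overlapping groups and adjusted p values of 0.195 and 0.266. Ccl6 and Ccl9, rodent ligands of Ccr1, differed between Group M and Group C by -0.34 and 0.68 and passed neither test, and the second Ccl6 probe gave -0.27.

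The receptor Ccr1, which binds Ccl3 and Ccl5 on monocytes, macrophages and T cells, was higher in Group M than in Group C by the criterion of the methods but not by limma. It read -4.41, -4.33, -4.41 and -3.65 in C1 to C4, -2.43, -3.89, -1.95 and -2.91 in M5 to M8, and -4.76, -4.27 and -4.75 in D9 to D11, with -3.64 in D12. M5, M7 and M8 lay above every rat of Group C, M6 fell inside the range of Group C, and C2 was not high for Ccr1 although it was for Ccl3 and Ccl4. Group M exceeded Group C by 1.40 (standard error 0.37, 2.65-fold, adjusted p = 0.105 by limma). Group D lay below Group M with a difference of -1.80 (adjusted p = 0.0819), and every one of D9 to D11 was below every rat of Group M. Without M6, the 1 rat of Group M inside the range of the controls, the differences were 1.77 and -2.16. Ccr1l1, a receptor gene beside Ccr1 on chromosome 8, read -6.04, -5.94, -5.90 and -6.04 in C1 to C4, -6.01, -5.91, -5.96 and -5.84 in M5 to M8, and -6.09, -6.13 and -6.33 in D9 to D11, with -7.34 in D12. All rats of Group D lay just below those of the other groups, and the difference against Group M was -0.26 (adjusted p = 0.160 by limma).

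The macrophage markers differed less than Ccr1. The 8 of 9 markers on the array (with Cd68, Csf1r and Cd163) summed to 19.1 to 25.9 times the 75th percentile in Group C, 22.2 to 29.1 in Group M and 17.8 to 19.6 in D9 to D11, with 28.2 in D12. None of them passed limma or the criterion of the methods. Before adjustment, 7 of 8 were lower in Group D than in Group M with p up to 0.05 by limma (9.85% of all probes). The median difference of the 8 was -0.51, and -0.37 with D12. In bulk tissue, fewer cells of a type and less RNA per cell cannot be told apart. The part of macrophage number in the Ccr1 values was not tested.

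**Figure D3:**
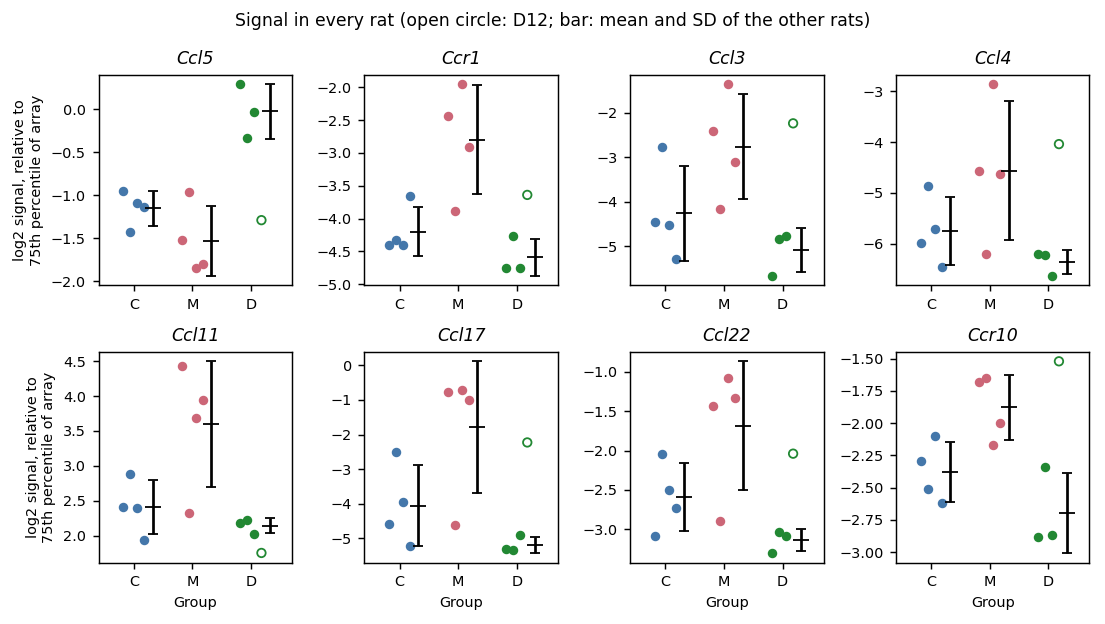
Log2 signal of 8 genes in every rat, by group. Filled points are the 11 rats of the main analysis, bars give their mean and SD, and the open circle is D12. For Ccl5, D9 to D11 lie between -0.34 and 0.29 and the rats of Groups C and M between -1.84 and -0.95. For Ccr1, Ccl11, Ccl17 and Ccl22, 3 of the 4 rats of Group M lie above every rat of Group C and D9 to D11 below every rat of Group M.

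Of the ligands of Ccr3, the receptor of eosinophils, Ccl11 (eotaxin) and Ccl24 had unlike patterns. Ccl11 read 2.41, 2.88, 2.40 and 1.94 in C1 to C4, 4.43, 2.32, 3.68 and 3.95 in M5 to M8, and 2.18, 2.22 and 2.02 in D9 to D11, with 1.75 in D12. M5, M7 and M8 were above every other rat, M6 was not, and D12 lay with the other rats of Group D. Group M exceeded Group C by 1.19 (standard error 0.39, adjusted p = 0.130 by limma), and Group D lay below Group M with a difference of -1.45 (0.42, adjusted p = 0.111) that passed the criterion of the methods and was -1.55 with D12 (adjusted p = 0.179). Ccl24 stayed between 2.92 and 3.31 in the 11 rats and had 2.77 in D12. Ccl26 was above background on no array.

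The receptor Ccr3 was above background in M5 (-5.02), M7 (-5.65) and M8 (-6.30) and in no other rat, with values from -8.11 to -7.41 elsewhere. Because the other groups were not above background, Group M was at least 2.6-fold above Group C and at least 2.5-fold above Group D (adjusted p = 0.132 and 0.160 by limma). These levels are reported although the rule for named genes did not choose Ccr3, and it was taken after its values were seen. The 3 eosinophil markers on the array (Epx, Prg2 and Il5ra) summed to 0.0696 to 0.297 in Group C, 0.0532 to 0.56 in Group M and 0.0951 to 0.142 in D9 to D11, with 0.454 in D12 and with Epx and Il5ra above background on no array. The 7 mast cell markers summed to 0.621 to 1.43 in Group C, 1.42 to 2.44 in Group M and 1.12 to 1.50 in D9 to D11, with 1.85 in D12, the rat with the lowest Ccl11. In Group M vs Group C, 5 of the 7 passed the criterion of the methods, all higher, as 2.33% of all probes did in either direction, and Kit differed by -0.49 and did not pass. Hdc, which makes histamine, passed limma with a difference of 1.61 (adjusted p = 0.0422). The part of these cells in the Ccr3 and Ccl11 values was not tested.

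Among the lymphoid tissue chemokines, Ccl19 had the widest range of all genes described here, and it ran within the groups. Ccl19 and Ccl21 draw T cells and dendritic cells into lymphoid tissue through Ccr7, and Cxcl13 draws B cells into follicles through Cxcr5. Ccl19 read -4.24, 3.23, -3.53 and -3.21 in C1 to C4, 3.02, -4.45, 2.50 and 2.96 in M5 to M8, and -3.81, -2.09 and -2.87 in D9 to D11, with 3.54 in D12. Cxcl13 read -3.16, 0.10, -2.29 and -3.58 in C1 to C4, 1.15, -2.66, 0.10 and 0.37 in M5 to M8, and -3.04, -2.37 and -3.15 in D9 to D11, with 0.87 in D12. Both genes were thus high in C2, M5, M7, M8 and D12 and low in the 7 others, and for Ccl19 the high rats lay between 2.50 and 3.54 and the low ones between -4.45 and -2.09. Ccl21b (Ccl21 in the current annotation) split the rats in the same way over a narrower range, with 2.50, 3.35, 2.60 and 2.40 in C1 to C4, 3.26, 2.24, 3.09 and 3.17 in M5 to M8, 2.33, 2.32 and 2.39 in D9 to D11, and 3.22 in D12. Neither Ccl19 (2.95, adjusted p = 0.404 by limma) nor Cxcl13 (1.97, adjusted p = 0.232) nor Ccl21b (0.22, adjusted p = 0.649) passed a test in Group M vs Group C. In Group D vs Group M the differences were -3.93, -2.59 and -0.59, with adjusted p values of 0.310, 0.170 and 0.248.

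The receptors split the rats into the same high and low sets. Cxcr5 was above background in C2 (-5.62), M5 (-4.83), M7 (-5.49), M8 (-4.99) and D12 (-4.31) and in none of the others, which read -8.54 to -7.07. Ccr7 read -2.69 in C2, -3.42, -3.83 and -3.90 in M5, M7 and M8 and -1.97 in D12, and -6.56 to -4.80 elsewhere, and its probe was not above background in M6. Ccr6, the receptor that guides B cells and dendritic cells to Ccl20 at the follicle epithelium, read 0.15 in C2, 0.40, 0.00 and 0.13 in M5, M7 and M8, 1.57 in D12, and -2.86 to -2.20 elsewhere. For all 3 receptors the 5 rats with high values were those with high Ccl19, and none passed limma or the criterion of the methods in any comparison. Cxcr4, the receptor of Cxcl12 on most leukocytes, and Cxcr3, a receptor of activated T cells, were likewise highest in D12 (-0.34 and -3.95), M5 (-0.93 and -4.15), M8 (-1.28 and -4.54) and C2 (-1.36 and -4.87). Ccl19, Cxcl13, Ccr6, Ccr7, Cxcr3, Cxcr4 and Cxcr5 were described in every rat after their values were seen.

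The B cell markers split the rats in the same way. The 5 of 7 on the array (with Cd79b, Ms4a1 and Blk) summed to 5.88 in C2, 8.95, 4.94 and 6.21 in M5, M7 and M8 and 14.6 in D12, and to 0.123 to 0.662 in the other rats. The sums ran from 0.23 to 5.88 in Group C, 0.287 to 8.95 in Group M and 0.123 to 0.662 in D9 to D11. The 7 T cell markers summed to 3.76 to 11.4 in the same 5 rats and to 0.758 to 1.39 in the others. None of these 12 markers passed limma or the criterion of the methods in any comparison. The part of lymphoid cells in the chemokine values was not tested, and whether the pieces of colon held lymphoid follicles is not given in the sources used here.

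**Figure D4:**
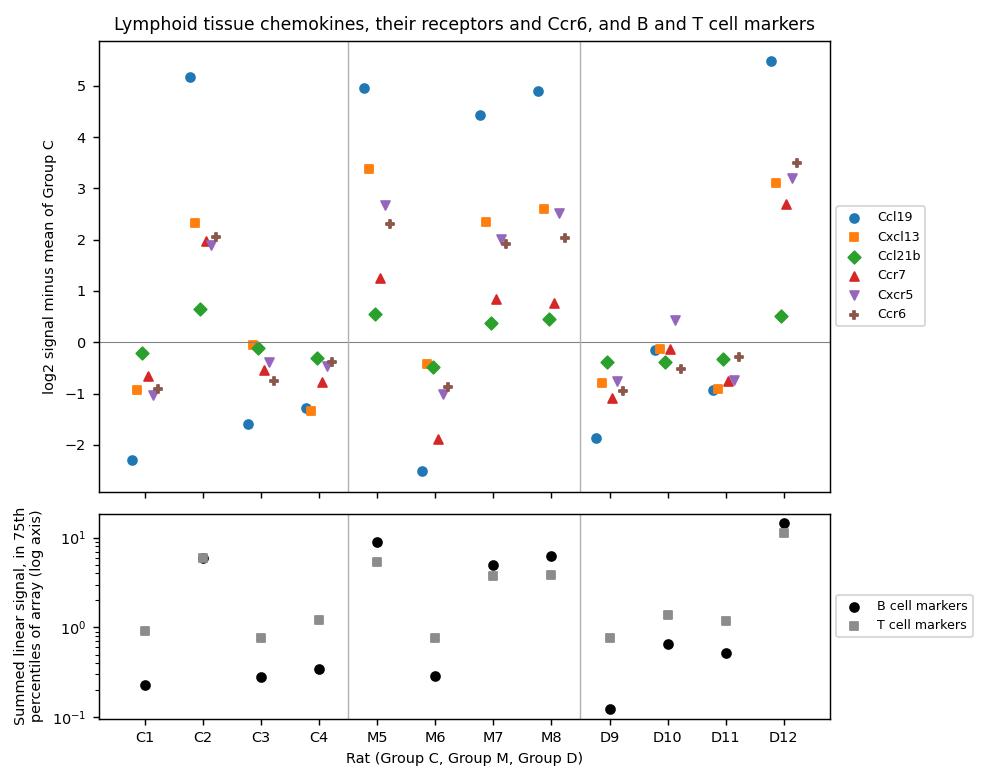
Upper panel, log2 signal minus the mean of Group C for Ccl19, Cxcl13, Ccl21b, Ccr7, Cxcr5 and Ccr6 in each rat, where Cxcr5 was above background in C2, M5, M7, M8 and D12 alone. Lower panel, summed linear signal of 5 B cell and 7 T cell markers, in 75th percentiles of the array on a log axis. C2, M5, M7, M8 and D12 are high in both panels and the other 7 rats low.

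Ccl17 and Ccl22, which dendritic cells and macrophages make for T cells that carry Ccr4, lay between these patterns. Ccl17 read -4.58, -2.50, -3.95 and -5.24 in C1 to C4, -0.78, -4.63, -0.71 and -1.01 in M5 to M8, and -5.31, -5.35 and -4.92 in D9 to D11, with -2.23 in D12. Ccl22 read -3.08, -2.05, -2.50 and -2.73 in C1 to C4, -1.43, -2.89, -1.08 and -1.34 in M5 to M8, and -3.30, -3.03 and -3.08 in D9 to D11, with -2.04 in D12. C2 and D12 were the highest of their groups for both genes but stayed below M5, M7 and M8, whereas for Ccl19 they had lain above them. Group M exceeded Group C by 2.28 for Ccl17 (standard error 0.87, adjusted p = 0.161 by limma) and 0.90 for Ccl22 (0.36, adjusted p = 0.179). In Group D vs Group M the differences were -3.41 (0.94, adjusted p = 0.104) and -1.45 (0.39, adjusted p = 0.102), both past the criterion of the methods, and with D12 they were -2.67 and -1.18 and neither passed it. Ccr4 was above background on no array and Ccr8, another receptor of T cells, on those of M5 and M7 (-6.73 and -7.16). Ccl1, the ligand of Ccr8, was above background in C3, C4 and M7 and passed neither test.

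Cxcl17, a mucosal CXC chemokine, was above background in C2 (-6.43), M5 (-6.22), M7 (-6.35), M8 (-6.55) and D12 (-5.85), and was not in C1, C3 and C4 (-8.11, -7.86 and -7.37), M6 (-7.51) and D9 to D11 (-8.73, -8.59 and -8.17). Group M was at least 1.91-fold above Group D (adjusted p = 0.0835 by limma), and the criterion of the methods was passed. With D12 the log2 difference was -1.18 instead of -1.84 and the criterion was not passed, and with normexp background correction the difference was -0.16, so that the bound holds for the processing used here. Cxcl6, a ligand of neutrophils, was above background in M7 alone (-4.32), and Cxcl3 on no array. M7 also had the highest sum of the 7 neutrophil markers, 3.68, against 0.155 to 0.642 in the 10 other rats of the analysis and 0.499 in D12. This sum was led by the brightest markers, S100a9 and S100a8, which read 1.28 and 0.16 in M7. Csf3r was also highest in M7 (-4.38), while Fpr1, Mmp8 and Mpo were not, and Elane was above background on no array.

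The other mucosal chemokines and receptors had no difference of 2-fold between the groups. Ccr10, the receptor of Ccl27 and Ccl28 on plasma cells and T cells, read -2.29, -2.51, -2.10 and -2.62 in C1 to C4, -1.68, -1.65, -2.17 and -2.00 in M5 to M8, and -2.88, -2.34 and -2.87 in D9 to D11, with -1.52 in D12. Unlike for the genes above, M6 was among the highest rats for Ccr10, and D12 was the highest of all. D9 to D11 lay below every rat of Group M, and D12 did not. Group D minus Group M was -0.82 with a standard error of 0.19 (limma, adjusted p = 0.0835), which was less than 2-fold, and Group M above Group C by 0.51 (adjusted p = 0.142). Plasma cell markers (5 of 7 on the array) summed to 11.9 to 17.9 in Group C, 19.9 to 58.5 in Group M, 15.3 to 18.6 in D9 to D11 and 28.1 in D12. The sums of Group M thus lay above those of the other 7 rats of the analysis. These sums were led by the brightest marker, Sdc1, which read 5.53 in M7. Taken singly, 2 of the 5 markers had Group M wholly above Group C, as 4.08% of all probes did, and others, among them Igj and Tnfrsf17, overlapped. The part of plasma cells in the Ccr10 values was not tested. The epithelial ligands Ccl20, Ccl27 and Ccl28 and the receptor Ccr9, which guides lymphocytes to the small intestine, passed neither test, with differences of -0.39 to 0.06 in Group M vs Group C and 0.00211 to 0.41 in Group D vs Group M. Ccl27, the skin and mucosal ligand of Ccr10, read -2.82, -3.08, -3.14 and -2.53 in C1 to C4, -2.75, -2.91, -2.99 and -2.70 in M5 to M8, and -2.72, -2.57 and -2.55 in D9 to D11, with -3.20 in D12, and the groups overlapped. The Ccl20 probes gave -0.29 and -0.33 in Group M vs Group C. Ccl25, the ligand of Ccr9, was above background on no array.

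The ligands of Cxcr3 that interferon induces, Cxcl9, Cxcl10 and Cxcl11, were not higher in Group M. Their differences against Group C were -0.22, -0.39 and -0.59, with adjusted p values of 0.387 to 0.543 by limma. Cxcl9 read -6.30, -5.81, -6.05 and -5.82 in C1 to C4, -6.09, -6.68, -6.18 and -5.91 in M5 to M8, and -5.46, -5.83 and -5.76 in D9 to D11, with -5.63 in D12. All rats of Group D, D12 included, lay above those of Group M for Cxcl9, and the difference of 0.53 did not pass (adjusted p = 0.158). Cxcl10 ranged from -2.08 in D9 to -0.36 in M7 among the 11 rats, with -0.04 in D12, and the groups overlapped.

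Cxcl16, a membrane-bound ligand of Cxcr6, was the 1 member probe with every rat of Group M above every rat of Group C (1.96% of the 51, against 4.08% of all probes). It read 1.57, 1.63, 1.71 and 1.41 in C1 to C4, 1.83, 2.01, 2.42 and 2.07 in M5 to M8, and 1.69, 1.76 and 2.04 in D9 to D11, with 2.27 in D12. The difference of Group M against Group C was 0.50 (standard error 0.14, adjusted p = 0.109 by limma), and M6 was not low here. Cxcr6 stayed between -5.59 and -5.03 in the 11 rats and was highest in D12 (-4.56). Cx3cl1 (fractalkine), the other membrane-bound chemokine, read 2.66, 2.87, 2.51 and 2.52 in C1 to C4, 2.94, 2.79, 3.74 and 3.22 in M5 to M8, and 3.01, 2.67 and 2.68 in D9 to D11, with 3.49 in D12. M7 was highest and the groups overlapped, with a difference of 0.53 (adjusted p = 0.155) in Group M vs Group C. Its receptor Cx3cr1, a marker of resident intestinal macrophages, differed by -0.31 (adjusted p = 0.415).

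Xcl1 (lymphotactin), a product of T and natural killer cells, read lower in Group M by both of its probes and passed neither test. The brighter read -4.10, -3.79, -3.92 and -3.87 in C1 to C4, -4.31, -4.50, -4.36 and -4.39 in M5 to M8, and -4.75, -3.88 and -4.20 in D9 to D11, with -4.99 in D12. Every rat of Group M lay below every rat of Group C, M6 included, and D9 to D11 overlapped with both groups. Its receptor Xcr1 was above background in C3 alone. The Xcl1 probes gave differences of -0.47 (adjusted p = 0.144 by limma) and -0.77 (adjusted p = 0.111), less than 2-fold in both. With the second Ccl6 probe they were the 3 probes for which Group M lay wholly below Group C (5.88%, against 5.18% of all probes).

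Cxcl12, a ligand made by stroma that holds leukocytes in tissue, Cxcr7 (Ackr3 in the current annotation), which takes it up, and Cxcl14, made by epithelium and fibroblasts, had no difference of 2-fold in any comparison. The Cxcl12 probes disagreed: the brighter differed by 0.04 between Group D and Group M, and the other read 0.32 to 0.75 in Group M and -0.09 to 0.23 in D9 to D11, with -0.09 in D12, a difference of -0.52 (adjusted p = 0.102 by limma). Cxcl14 read 4.67, 4.53, 4.15 and 4.43 in C1 to C4, 4.82, 4.72, 4.61 and 4.83 in M5 to M8, and 4.71, 4.49 and 4.64 in D9 to D11, with 4.22 in D12. The difference of Group M against Group C was 0.30 (adjusted p = 0.174).

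Leaving out M6 changed the calls. M6 was singled out after the values were seen, and as the rat of Group M nearest to the controls in many of these genes its omission widens the differences by construction, so that these counts are a description and support no difference. Without it, limma called 9 probes in Group M vs Group C, all higher in Group M (17.6%, against 5.86% of all probes), among them Ccr1, Ccr3, Ccl4, Ccl11, Ccl17, Ccl22, Cxcl13 and Cxcr5. In Group D vs Group M it called 16 (31.4%, against 6.51% of all probes), of which Ccl5 alone was higher in Group D. In Group D vs Group C it called 0 (0.00988% of all probes).

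The other genes of the chemokine pathway, a list of decoy receptors, chemoattractants named otherwise, G proteins, kinases, arrestins and signalling proteins downstream of the receptors, had 42 genes on the array and 38 measured. None passed limma or the criterion of the methods in any comparison. Before adjustment, with p up to 0.05 by limma, 9 were higher and 2 lower in Group M vs Group C (9.86% and 12.9% of all probes), 3 higher and 16 lower in Group D vs Group M (11.8% and 9.85% of all), and 1 higher and 1 lower in Group D vs Group C (3.15% and 2.83% of all). Their median differences were 0.31, -0.36 and -0.08, and those of all probes -0.01, 0.02 and -0.000251. With D12, the medians in Group D vs Group M and Group D vs Group C were -0.22 and 0.11, where all probes had -0.000924 and -0.02. The 21 genes of signalling downstream of the receptors had medians of 0.62 and -0.86 in the first and second comparison, and the 13 G proteins, kinases and arrestins 0.25 and -0.19. With D12, the medians of these 2 lists in the second comparison were -0.44 and -0.12. The list was described by these counts and was not tested as a whole.

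Promoters were read for the 34 of the 46 genes that the RefSeq table (GRCr8 build) held, over the 250 bases before the annotated start and on both strands. The table held no promoter for 12 genes, among them Ccl3, Ccl4, Ccl5, Ccl11, Ccr7, Ccr10 and Cxcr5, which were therefore not searched. The consensus motif of NF-kB, a factor that inflammation activates, stood in 6 of the 34 (17.6%, against 3.54% of 33469 promoters): Ccl9, Ccl20, Ccr3, Cxcl6, Cxcl10 and Cxcl11. The interferon-response motif, a pair of GAAA with 2 bases between them, stood in 2 (5.88% against 3.41%), the STAT motif TTCNNNGAA in 4 (11.8% against 7.67%) and the AP-1 motif TGANTCA in 6 (17.6% against 6.34%). Matches of different motifs did not overlap, and in Cxcl6 a pair of NF-kB matches overlapped. The stretches of genes with unlike values are shown from 5′ to 3′ in the direction of the gene, with the motif in capitals, for Ccl19 (interferon-response motif), Ccl17 and Ccr6 (STAT motif), and Ccr3, Cxcl10 and Cxcl11 (NF-kB motif). Capitals mark only the match of the motif named for the gene. The Cxcl11 stretch also holds an AP-1 match in lower case, and Ccr6 has another STAT match outside its stretch.
Ccl19 (chr5:61761176-61761245, minus strand): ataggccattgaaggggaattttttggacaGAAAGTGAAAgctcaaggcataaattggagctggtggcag
Ccl17 (chr19:10209896-10209938, minus strand): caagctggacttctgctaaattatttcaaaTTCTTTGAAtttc
Ccr6 (chr1:55046231-55046299, minus strand): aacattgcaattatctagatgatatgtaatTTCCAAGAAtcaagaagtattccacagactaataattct
Ccr3 (chr8:132500041-132500110, plus strand): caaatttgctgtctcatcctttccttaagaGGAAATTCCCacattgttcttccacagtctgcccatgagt
Cxcl10 (chr14:15988849-15988918, plus strand): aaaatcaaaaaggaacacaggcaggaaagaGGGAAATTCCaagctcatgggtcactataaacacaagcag
Cxcl11 (chr14:15973624-15973693, plus strand): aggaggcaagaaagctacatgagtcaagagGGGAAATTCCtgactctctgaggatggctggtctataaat
Among the 6 genes with the NF-kB motif, Ccr3 was above background in 3 rats of Group M alone, while Cxcl10 and Cxcl11 did not differ past any test. A match of letters is no binding site by itself, and no binding was measured here.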

How the data were processed

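RNA from the colon of 12 rats was hybridised with Cy3 to 1-colour arrays, 1 array per rat. The deposited intensity values were made by the authors with Feature Extraction 10.5.1.1, which subtracted background and corrected trends, and they are linear and not normalised between arrays. The authors also deposited a matrix of log2 values, used here as an alternative. Each intensity was divided by its array's 75th percentile and taken to log2. Control spots and the 277 to 521 outlier spots per array were left out, and spots of a probe averaged. The 75th percentile ranged from 1434 to 1953 and 75.5% to 77.5% of spots lay well above background. The number of arrays limits the precision.

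All tests across probes used lmFit and eBayes of limma 3.58.1 (R 4.3.3), with 3 groups in 1 model over 11 arrays and Benjamini-Hochberg adjustment over 30367 probes. A call needed adjusted p up to 0.05 plus a 2-fold change. The criterion of the methods (analysis of variance and Tukey at 0.05, 2-fold) was computed on the same values. The procedure was tested on simulated data. The labels do not say that rats came from separate litters, so p-values measure the spread between these samples. Where a probe was not above background on any array of a group, its fold is a lower bound against the higher of its own signal and the lowest signal above background.

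Values in every rat are given for genes past either criterion or among the 10 smallest p of the measured genes in a comparison. A gene with 2 probes is represented by the brighter. Members, role lists, pathway list and marker lists were chosen with earlier results of these data known. All 46 genes matched the RefSeq gene table by accession or symbol, 34 had an entry in its promoter table, and names are those of the files. Figures were drawn with Python and matplotlib. The values of 1 member gene are not reported here, though it is part of the counts and medians.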

Additional observations from a re-analysis of the deposited data

Results flagged for a closer look

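Only the genes chosen by the rule for named genes were searched, as 54 groups of 4 rats (D12 included). The search looked for a rat whose gap to the nearest of the others was too large a part of the range of the group. Genes described after their values were seen, such as Ccl19, Cxcl13, Ccr6 and Ccr7, were not searched, so the tally does not cover them. In all, 6 were found, 3 of them D12, 2 M6 and 1 C4. The same rats enter for every gene, so these groups are not independent and the number is not set against chance.

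In Group D, D12 was far above the others for Ccl17 (-2.23, others -5.35 to -4.92), Ccl4 (-4.04, others -6.63 to -6.21) and Ccl21b (3.22, others 2.32 to 2.39). In Group M, M6 was far below the others for Ccl17 (-4.63, others -1.01 to -0.71) and Ccl21b (2.24, others 3.09 to 3.26). In Group C, C4 was above the others for Ccr1 (-3.65, others -4.41 to -4.33). Rat D12, which is outside the main analysis, exceeded the Group C mean by 2-fold or more in 11 of the 35 measured genes. The rats of Group C, each set against the mean of the others of that group, had 0 to 9.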

How the results depend on the processing

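The Ccl5 call in Group D vs Group M was made by limma under normexp background correction, quantile normalization, a shift to the median, the matrix of the authors, outlier spots kept, probes above background alone, 1 probe per gene and no fold threshold. It was lost (0 of 51 probes) with all 12 arrays, with only the compared groups in the model, and by the criterion of the methods with Benjamini-Hochberg adjustment. With array quality weights limma called 14 and 19 probes in the first comparison (Group M vs Group C) and the second (Group D vs Group M), where it called 6.94% and 6.9% of all probes, and 10 and 12 genes of the pathway list. At an unadjusted p with 2-fold there were 6, 14 and 2 probes in the first, the second and Group D vs Group C (4.08%, 5.13% and 0.754% of all probes), and 4 pathway genes in the second. The criterion of the methods gave 2, 8 and 1, with means of linear signals too, and with all 12 arrays, an alternative added after seeing the data, 4, 4 and 0.

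With each rat left out in turn, limma called 0 to 9, 0 to 16 and 0 to 0 probes in the 3 comparisons, and 0 to 6, 0 to 10 and 0 to 0 pathway genes, the highest without M6. By the criterion of the methods, also added later, there were 1 to 9, 3 to 16 and 0 to 1, with 9 and 16 without M6, 4 in Group M vs Group C without C2, 1 there without C1, C3 or M5, 3 to 5 in Group D vs Group M without D10, D9, D11, M5, M7 or M8, and 0 in Group D vs Group C without D9. For single genes, 611 values kept direction and side of the threshold, 12 lost the call (all Ccl5), 26 gained one, and 1 turned: Ccr1l1 in Group D vs Group C, 0.0105 with normexp correction.

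The labels do not say that the replicate numbers pair the rats. Same-numbered rats had correlations of their deviations from -0.559 (C2 and M6) to 0.126, which cannot settle by themselves whether rats were paired. With the replicate number as a block, limma called 0 probes in each comparison, and Ccl5 in Group D vs Group M had 1.46 (adjusted p = 0.214). The slide could not be a block, since Group D lay alone on slide 2. Genes near background (Ccr3, Cxcr5, Cxcl17) have bounds only, and with 3 or 4 rats a group, differences under 2-fold were seldom resolved.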
